A study of Mus musculus with 4 samples.

Results

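Klf2, Klf4, Nos3, Cav1, S1pr1 and Piezo1 are genes by which the cells lining blood vessels sense and answer the drag of flowing blood. The 6 genes were taken by symbol from the 54456 gene symbols of the count matrices, and all 6 were found. Their levels were followed in mouse liver non-parenchymal cells, which are the cells of the liver other than hepatocytes. The groups used here were HFD_EXE, HFD_sed and S, with 1 library each, from C57BL/6J mice aged 30 weeks. The study's title and design describe a high fat diet (HFD) and exercise, and the names are read here as high fat diet with exercise (HFD_EXE) and high fat diet without it (HFD_sed). The letter S is not spelled out in the labels, and its library carries no HFD in its name. A further group, E, was not analysed here. All of the livers were digested with enzymes, red blood cells were lysed and dead cells were removed, and the number of animals behind each library is not given in the sources used here.

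Flowing blood deforms the surface of endothelial cells, and channels such as PIEZO1 open in response. A kinase cascade through MEK5 and ERK5 then activates MEF2 factors, which switch on the transcription factors KLF2 and KLF4. These in turn raise Nos3, which encodes endothelial nitric oxide synthase, and the anticoagulant receptor Thbd, and they hold down the vasoconstrictor Edn1. In the liver the cells exposed to this slow flow are the sinusoidal endothelial cells (LSECs), while in lymphocytes KLF2 is best known for driving S1pr1, the receptor used to leave tissues.

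The libraries held 11280 barcodes for HFD_EXE, 11752 for HFD_sed and 11660 for S, against 5000 to 6000 cells per sample stated in the protocol. After filtering and removal of doublets, 10172, 10740 and 10212 cells were kept, with median depths of 4917.5, 4179.5 and 6150 unique molecular identifiers (UMIs, each counting 1 captured RNA molecule). S shared 30 barcodes with each of the HFD libraries, and those shared 43 with each other. LSECs numbered 5253 in HFD_EXE, 2450 in HFD_sed and 3134 in S. Each library's LSECs fell largely into a cluster of their own, with 4886 cells of HFD_EXE in cluster c0, 2180 of HFD_sed in c2 and 3061 of S in c1. The junction gene Cdh5 stood at 933, 965 and 821 CPM in these LSECs, where CPM counts a gene's UMIs per 1000000 UMIs of the class, and the leukocyte gene Ptprc at 18.3, 38.1 and 14.3 CPM. With 1 library per group no p-value can be given. Intervals are exact 95% intervals for counting error only, and they do not cover differences between animals or preparations. A gene is called higher or lower where the ratio of CPM passes 1.5 in either direction and its interval excludes 1.

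Klf2 and Klf4, the transcription factors of the set, and S1pr1 were highest in the LSECs of HFD_EXE, intermediate in HFD_sed and lowest in S. Nos3 took another order, being highest in HFD_EXE and lowest in HFD_sed. Cav1 and Piezo1 differed by less than 1.5-fold in every comparison of LSECs. Of the 6 genes, 3 were called higher and 0 lower in HFD_EXE over HFD_sed, where 8.29% of 14808 measured genes were called higher and 12.3% lower. In HFD_EXE over S, 4 were called higher and 0 lower, beside 9.06% of 15155 genes higher and 8.5% lower. In HFD_sed over S, 3 were called higher and 0 lower, beside 14.6% of 14638 genes higher and 9.17% lower. The Klf4 and S1pr1 calls in HFD_EXE over HFD_sed lay near the limit, and did not hold in every subset of endothelial cells described below. The 3 comparisons share libraries and are not independent of one another.

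Klf2 was at 2937 CPM in HFD_EXE LSECs (95% interval 2917 to 2956), 2548 CPM in HFD_sed LSECs (2522 to 2574) and 894 CPM in S LSECs (882 to 905). None of these intervals overlap, and both HFD libraries stood far above S. The ratio was 3.29 in HFD_EXE over S (3.24 to 3.33) and 2.85 in HFD_sed over S (2.80 to 2.90). Between the HFD libraries it was 1.15 in HFD_EXE over HFD_sed (1.14 to 1.17), which does not reach the 1.5-fold limit. Among all measured genes, Klf2 lay at percentile 98.2 of the ratios of HFD_EXE over S and at percentile 95.5 of those of HFD_sed over S. The median log2 ratio over all of these genes was 0.02 and 0.07 in the same comparisons. Cells were also thinned to 2000 UMIs each, which left out shallower cells and kept 4480 LSECs of HFD_EXE, 2211 of HFD_sed and 3048 of S. A Klf2 UMI was found in 97.7% of HFD_EXE, 85.6% of HFD_sed and 73.8% of S LSECs. In all LSECs without thinning the shares were 96.7%, 92.2% and 93.8%, where S, whose LSECs were the deepest at a median of 7510.5 UMIs against 5367 in HFD_EXE and 5430 in HFD_sed, no longer ranked last.

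Because KLF2 and KLF4 share upstream regulators, the 250 bases before each start site are shown, with any match to the consensus of MEF2 factors in capitals. They come from RefSeq on build GRCm38.p6, which differs from the GRCm39 build of the counts, and RefSeq promoters were matched for 4 of the 6 genes (Klf2, Klf4, Cav1 and Piezo1). The Klf2 sequence lies on the plus strand at chr8:72318812-72319061 and the Klf4 sequence on the minus strand at chr4:55532476-55532725, both written 5′ to 3′ along the gene.
Klf2: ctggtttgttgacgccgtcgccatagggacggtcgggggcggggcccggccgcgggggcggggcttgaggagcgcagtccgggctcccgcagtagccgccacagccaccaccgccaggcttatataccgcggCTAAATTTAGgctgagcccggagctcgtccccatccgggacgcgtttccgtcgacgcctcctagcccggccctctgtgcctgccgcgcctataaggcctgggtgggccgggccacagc
Klf4: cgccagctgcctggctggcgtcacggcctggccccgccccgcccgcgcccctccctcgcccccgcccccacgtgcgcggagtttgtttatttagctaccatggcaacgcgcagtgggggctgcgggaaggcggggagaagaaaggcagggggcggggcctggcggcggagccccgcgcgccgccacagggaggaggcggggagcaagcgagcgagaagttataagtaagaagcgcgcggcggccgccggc
The Klf2 window held 1 match to the MEF2 consensus, 118 bases before the start, which reads on both strands. It also held CACCC, the core bound by Krüppel-like factors, once on the reverse strand, 19 bases before the start and apart from the MEF2 match. No match to the CArG box of serum response factor was found in it. The Klf4 window held no match to any of these 3 motifs, searched on both strands. Among 32851 promoter windows of the same length, 2.92% held the MEF2 consensus, 52.0% CACCC and 1.47% a CArG box. A match is a description of letters and not a measured binding site.

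Klf4, a close relative of Klf2 that restrains inflammatory genes in endothelium, was at 1095 CPM in HFD_EXE LSECs, 683 CPM in HFD_sed LSECs and 334 CPM in S LSECs. The 3 libraries were well separated. Its ratio was 1.60 in HFD_EXE over HFD_sed (1.57 to 1.64), 3.28 in HFD_EXE over S (3.20 to 3.36) and 2.05 in HFD_sed over S (1.99 to 2.11). In cells thinned to 2000 UMIs, 77.5% of HFD_EXE, 54.6% of HFD_sed and 40.1% of S LSECs had a Klf4 UMI, against 85.5%, 67.2% and 69.9% of all LSECs unthinned.

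S1pr1, the sphingosine 1-phosphate receptor that tightens endothelial junctions, was at 724 CPM in HFD_EXE LSECs, 454 CPM in HFD_sed LSECs and 189 CPM in S LSECs. The order of the libraries was that of Klf2 and Klf4. Its ratio was 1.60 in HFD_EXE over HFD_sed (1.55 to 1.64), 3.84 in HFD_EXE over S (3.72 to 3.96) and 2.40 in HFD_sed over S (2.32 to 2.49).

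Nos3 was at 182 CPM in HFD_EXE LSECs (177 to 187), 77.6 CPM in HFD_sed LSECs (73.1 to 82.2) and 111 CPM in S LSECs (107 to 115). HFD_sed, in which Klf2 was nearly as high as in HFD_EXE, was therefore the library with the lowest Nos3. The ratio was 2.35 in HFD_EXE over HFD_sed (2.20 to 2.51) and 1.64 in HFD_EXE over S (1.56 to 1.71). In HFD_sed over S it was 0.697 (0.650 to 0.747), which lies below 1 without passing the 1.5-fold limit. Thinned LSECs with a Nos3 UMI made up 29.7% in HFD_EXE, 13.7% in HFD_sed and 19.8% in S. Unthinned, the shares were 54.0%, 32.3% and 54.4%. In B cells, which should lack the gene, thinned shares were 3.04%, 1.002% and 1.65% in HFD_EXE, HFD_sed and S, well below those of LSECs.

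Cav1 encodes caveolin-1, the coat protein of caveolae, which binds and inhibits the Nos3 product. It was at 35.1 CPM in HFD_EXE LSECs, 29.7 CPM in HFD_sed LSECs and 42.4 CPM in S LSECs, in the opposite order to Klf2 between HFD_EXE and S. Its ratio was 1.18 in HFD_EXE over HFD_sed, 0.827 in HFD_EXE over S and 0.700 in HFD_sed over S (0.624 to 0.783). Piezo1, the mechanically gated channel, was at 54.7 CPM in HFD_EXE LSECs, 77.3 CPM in HFD_sed LSECs and 62.2 CPM in S LSECs. It was highest where Nos3 was lowest, and its ratio was 0.708 in HFD_EXE over HFD_sed, 0.879 in HFD_EXE over S and 1.24 in HFD_sed over S.

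**Figure D1:**
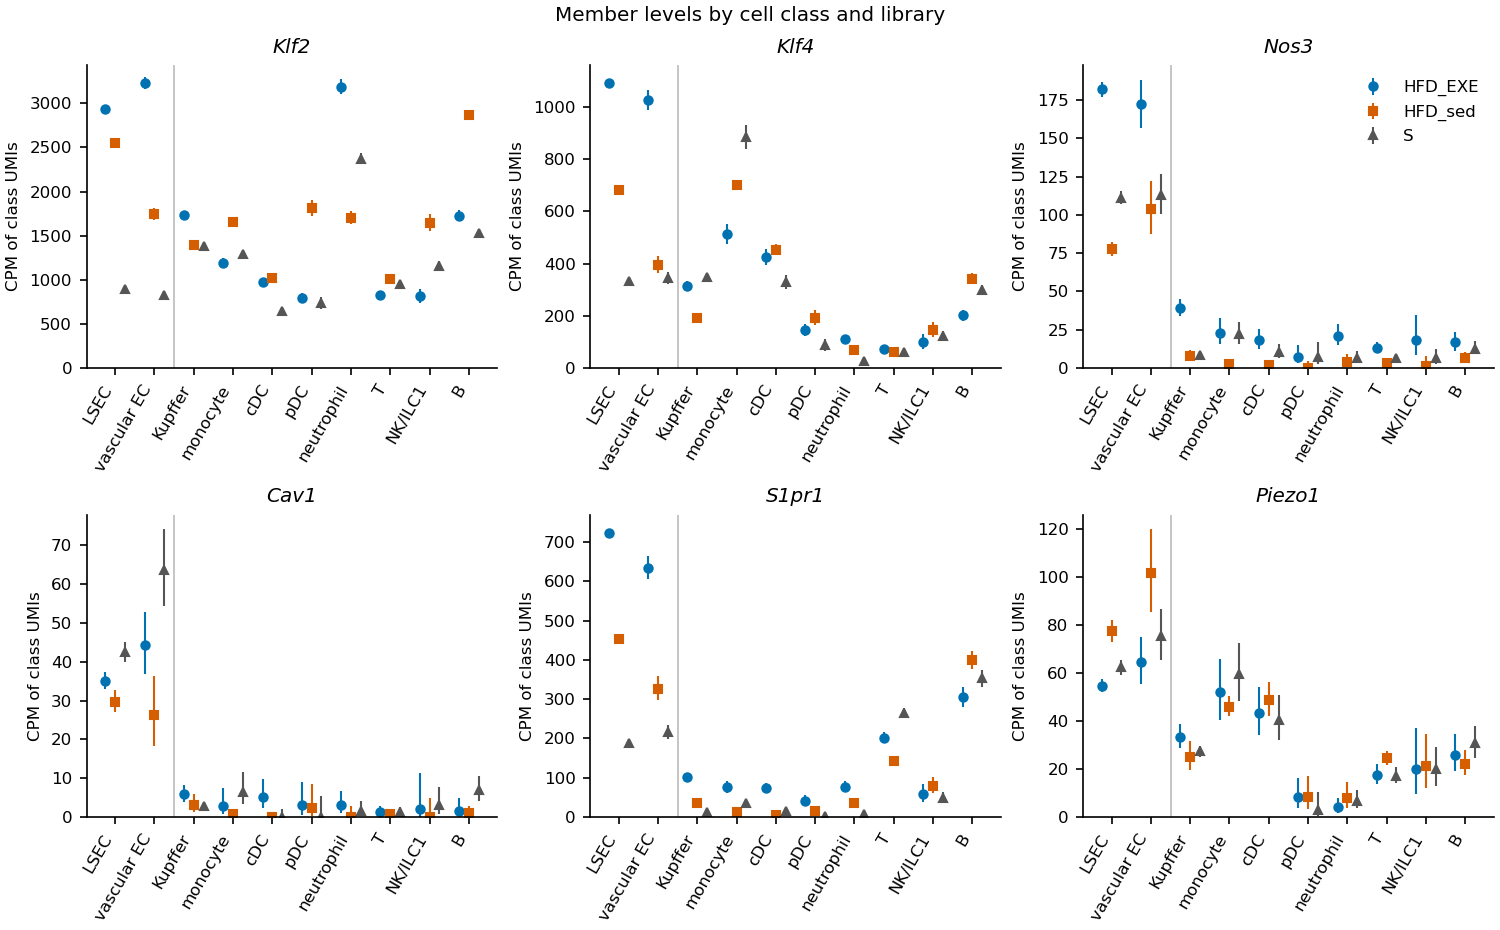
Level of each of the 6 genes in CPM (vertical axis) in endothelial classes and leukocyte classes (horizontal axis), with a colour and marker for each library and bars for exact 95% counting intervals. Nos3 and Cav1 stand highest in the 2 endothelial classes of every library, while Klf2 reaches 3191 CPM in HFD_EXE neutrophils and 2867 CPM in HFD_sed B cells.

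The vascular endothelial class, defined by large-vessel markers, held 409 cells in HFD_EXE, 182 in HFD_sed and 306 in S. It also carried the LSEC lectin gene Clec4g at 1957, 711 and 1671 CPM, against 2806, 2016 and 2843 CPM in LSECs, so that its make-up differed between libraries. Its bounds depended on the clustering. At a resolution of 2.0 the class held 56 cells in HFD_EXE, 235 in HFD_sed and 57 in S. A cluster named LSEC there, led by Rspo3, Wnt9b, Lhx6 and Vwf, held 359, 43 and 254 cells. Klf2 was at 3230 CPM in HFD_EXE, 1742 CPM in HFD_sed and 827 CPM in S vascular cells. Klf4 was at 1027, 395 and 343 CPM in the same order, and S1pr1 at 634, 327 and 216 CPM. For each of these genes HFD_EXE stood highest and S lowest, as in LSECs. In HFD_EXE over HFD_sed, 5 genes were called higher (Klf2, Klf4, Nos3, Cav1 and S1pr1) and 1 lower (Piezo1), beside 7.54% of 10518 genes higher and 10.7% lower. In endothelial cells taken by a Vwf UMI the 5 higher calls held, but Piezo1 (0.769) was not called. The central vein sub-cluster gave no call for Nos3 (1.496) or Piezo1 (0.799). The arterial-like sub-cluster, with 22 cells in HFD_sed, gave none for Nos3 (1.53), Cav1 (1.35) or Piezo1 (0.698). In HFD_EXE over S, Klf2 (ratio 3.90), Klf4 (2.997), S1pr1 (2.94) and Nos3 (1.52) were called higher and 0 lower, beside 5.91% of 10905 genes higher and 6.08% lower. The central vein sub-cluster gave no call for Nos3 (1.37) in that comparison and called Cav1 lower (0.387). Nos3 was called higher in cells taken by a Vwf UMI (1.67) and in arterial-like cells (1.64), where Cav1 was not called (0.791 and 2.03). In HFD_sed over S, Klf2 (2.11) and S1pr1 (1.52) were called higher and Cav1 (0.413, interval 0.279 to 0.594) lower, beside 12.1% of 10527 genes higher and 7.72% lower. The S1pr1 call lay at the limit, and was lost in vascular cells with a low immediate early share (0.995) and in endothelial cells taken by a Vwf UMI (1.46). Klf4 was not called there, at a ratio of 1.15, whereas it was called higher in LSECs of the same libraries. The difference between these ratios was not tested.

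**Figure D2:**
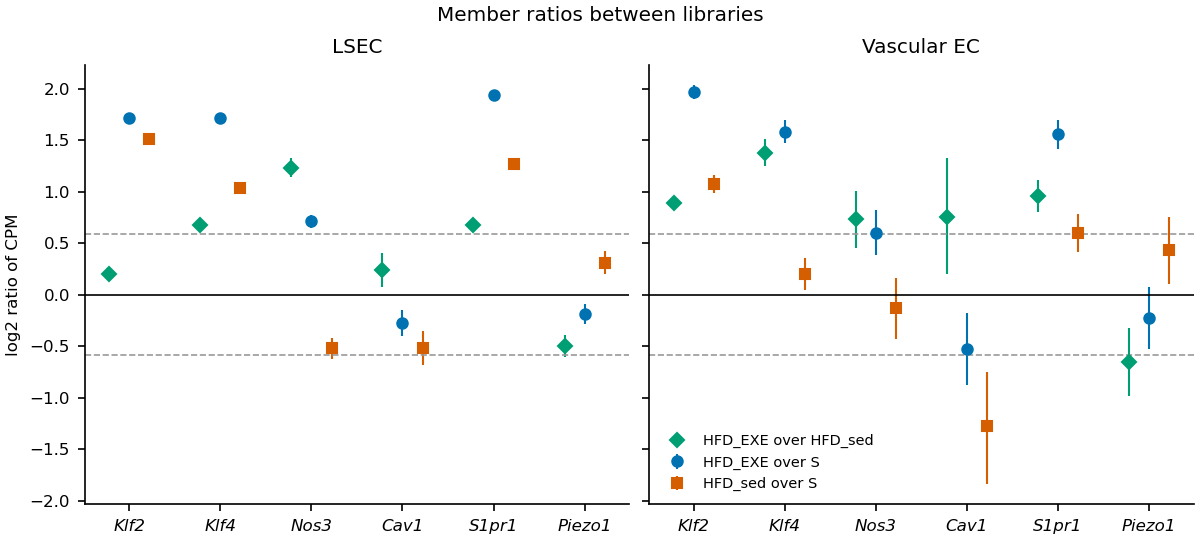
Log2 ratio of CPM (vertical axis) for each of the 6 genes (horizontal axis) in LSECs and in vascular endothelial cells, with a colour for each pair of libraries, bars for 95% counting intervals and dashed lines at a ratio of 1.5 in either direction. Klf2, Klf4 and S1pr1 lie above the upper line in HFD_EXE over S in both classes, and Piezo1 lies below the lower line in vascular cells of HFD_EXE over HFD_sed.

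Genes induced within minutes of stimulation or of tissue handling differed between the libraries as well. All 20 genes of an immediate early list were detected in LSECs, and their summed level was 5163 CPM in HFD_EXE, 8886 CPM in HFD_sed and 3506 CPM in S. In HFD_sed over S, 16 of 19 measured genes of that list were called higher and 0 lower, while in HFD_EXE over HFD_sed 0 were higher and 14 lower. Over all genes 14.6% were higher and 9.17% lower in the first of these comparisons and 8.29% and 12.3% in the second. Transcripts of hepatocytes, 20 on the list and all detected, reach other cells as free RNA. In LSECs they summed to 3031 CPM in HFD_EXE, 4151 CPM in HFD_sed and 4920 CPM in S. Gene by gene, the list did not follow the sums between the HFD libraries. Only 1 of the 20 genes was called lower in HFD_EXE over HFD_sed, against 5 called higher. Over S, 14 were called lower in HFD_sed and 10 in HFD_EXE, and 0 higher in either. The 10 heat shock genes summed to 756, 971 and 749.7 CPM in HFD_EXE, HFD_sed and S. Leukocyte genes of the KLF2 programme, all 10 detected in LSECs, summed to 123, 249 and 154 CPM. Most of that sum in the HFD libraries came from Foxo1, at 78.7 CPM in HFD_EXE and 164 CPM in HFD_sed. The part of these 3 lists in the results was not tested.

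The genes were therefore also read in LSECs whose share of immediate early UMIs lay below the median of 0.347% over all LSECs, which left 2625 cells of HFD_EXE, 475 of HFD_sed and 2318 of S. Klf2 in these cells was at 2456 CPM in HFD_EXE, 1305 CPM in HFD_sed and 721 CPM in S. HFD_EXE remained above both other libraries, at 1.88 times HFD_sed and 3.40 times S, and the ratio of HFD_sed over S was 1.81. Klf4 was at 831 CPM in HFD_EXE, 233 CPM in HFD_sed and 249 CPM in S. Its higher level in HFD_sed over S was thus not found in cells with few immediate early UMIs, with a ratio of 0.937. In HFD_EXE over HFD_sed the Klf4 ratio was 3.56 in the same cells. Nos3 kept its order, at 170 CPM in HFD_EXE, 71.6 CPM in HFD_sed and 114 CPM in S, and passed the limit as lower in HFD_sed over S (0.627) but not as higher in HFD_EXE over S (1.49). S1pr1 also kept its order, at 645 CPM in HFD_EXE, 372 CPM in HFD_sed and 179 CPM in S.

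**Figure D3:**
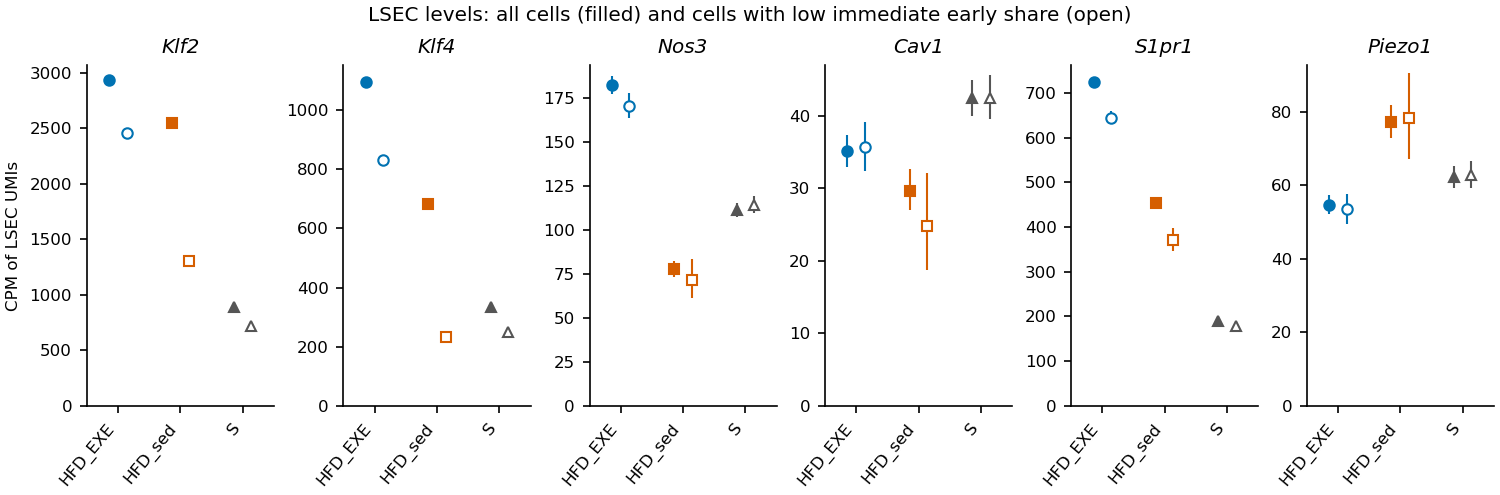
LSEC level in CPM (vertical axis) in each library (horizontal axis), for all LSECs (filled markers) and for LSECs with a low share of immediate early UMIs (open markers), with 95% counting bars. Klf2 in HFD_sed is at 2548 CPM in all LSECs and 1305 CPM in the low-share cells, whereas in HFD_EXE it is at 2937 and 2456 CPM.

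Klf2 and Klf4 were detected together within single LSECs. In HFD_sed cells thinned to 2000 UMIs, a Klf4 UMI was found in 18.9% of 318 cells with no Klf2 UMI and in 81.7% of 377 cells with 10 or more. In HFD_EXE the shares were 44.2% of 104 cells and 89.2% of 656 cells. In S, few cells held many Klf2 UMIs, and the share went up to 65.9% of 85 cells with 6 to 9 Klf2 UMIs, against 30.5% of 798 cells with none. For S1pr1 the libraries differed. In HFD_EXE its share was 67.4% in cells with 1 to 2 Klf2 UMIs (63.7 to 71.0) and 77.4% in those with 10 or more (74.0 to 80.6), but 76.0% in the 104 cells with none. In HFD_sed 59.1% of cells with no Klf2 UMI and 54.9% of those with 10 or more held an S1pr1 UMI, and in S the shares stayed between 30.3% and 31.0% in all bins. Nos3 was at 31.7% and 33.8% in the lowest and highest bins of HFD_EXE, at 10.1% and 19.6% in those of HFD_sed and at 19.4% and 16.5% in those of S. The lowest bin of HFD_EXE held only 104 cells (22.95 to 41.6). Among HFD_EXE cells with 1 to 2 Klf2 UMIs the Nos3 share was 26.25% (22.9 to 29.8), below that of the highest bin (30.2 to 37.6). Cells of a library share its preparation, and these shares describe cells rather than replicates.

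**Figure D4:**
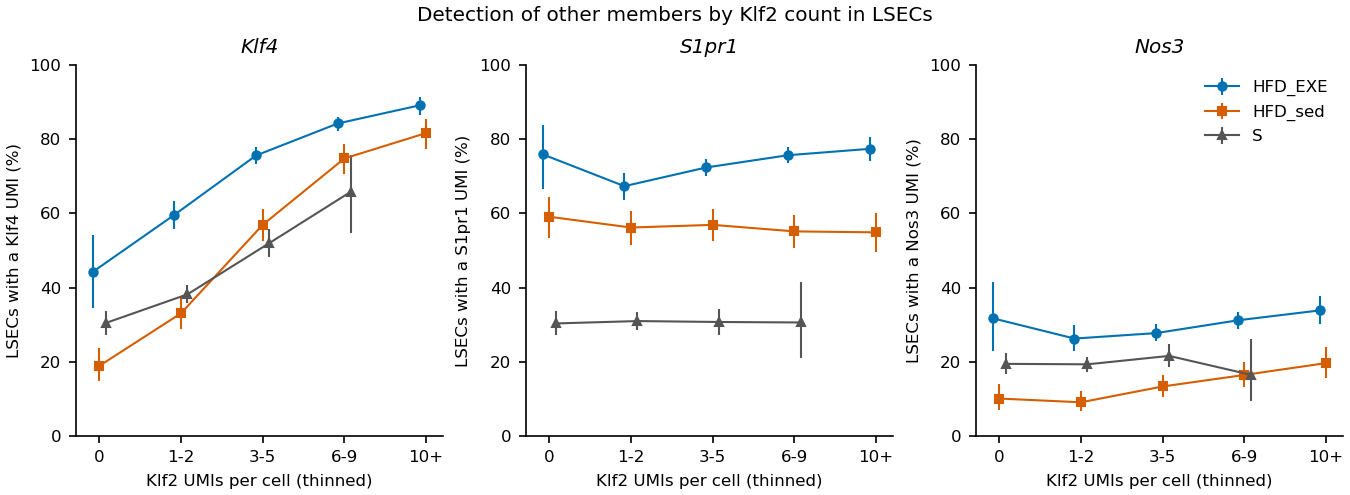
Percentage of LSECs with a UMI of each of 3 other genes (vertical axis) by the number of Klf2 UMIs in the same cell after thinning (horizontal axis), by library, with exact 95% binomial bars. The Klf4 lines climb with the Klf2 count in all 3 libraries, while the S1pr1 line of S stays between 30.3% and 31.0%.

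The other genes of the pathway were read in LSECs in lists, which were chosen with earlier results of these data known. KLF targets split the HFD libraries. Adamts1, Gja4 and Thbd of that list were among the genes leading c0, the cluster of most HFD_EXE LSECs. Of the targets that were measured, 10 of 19 were called higher and 2 lower in HFD_EXE over HFD_sed, with a median log2 ratio of 0.67 beside -0.06 over all genes. In HFD_sed over S, 4 of 20 were higher and 10 lower (median -0.55 beside 0.07), although Klf2 itself was higher there. In HFD_EXE over S, 6 of 19 were higher and 1 lower (median 0.07 beside 0.02). Over all genes 8.29% were higher and 12.3% lower in the first of these comparisons. The shares were 14.6% and 9.17% in the second and 9.06% and 8.5% in the third.

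Thbd, which encodes the anticoagulant receptor thrombomodulin, was at 770 CPM in HFD_EXE, 93.2 CPM in HFD_sed and 184 CPM in S LSECs. Like Nos3, it was highest in HFD_EXE and lowest in HFD_sed, with a ratio of 8.27 in HFD_EXE over HFD_sed. Gja4, the gap junction gene for connexin 37, was at 686 CPM in HFD_EXE, 49.3 CPM in HFD_sed and 266 CPM in S, in the same order. Slco2a1, a prostaglandin transporter, was at 416 CPM in HFD_EXE, 46.9 CPM in HFD_sed and 423 CPM in S, so that HFD_sed alone stood apart. Adamts1, a secreted protease, followed the order of Klf2, at 942, 581 and 153 CPM in HFD_EXE, HFD_sed and S. Nqo1 was instead highest in S, at 8.35, 1.73 and 26.6 CPM in HFD_EXE, HFD_sed and S. It was the 1 target called lower in HFD_EXE over S (0.314). Bmp4 was highest in HFD_sed, at 0.136, 3.81 and 0.230 CPM, from 4, 55 and 6 UMIs.

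Genes of low or disturbed flow and of the YAP programme, a list that shares Bmp4 with the KLF targets, took the opposite course. This list, too, was chosen with earlier results known. Its genes Esm1, Ccn2 and Angpt2 were among those leading c2, the cluster of most HFD_sed LSECs. The counts therefore describe these libraries and are not an independent reading of flow. Of 13 measured, 12 were called higher and 0 lower in HFD_sed over S, and 0 higher and 12 lower in HFD_EXE over HFD_sed, with median log2 ratios of 3.50 and -3.50. Over all genes 14.6% were higher and 9.17% lower in the first of these comparisons and 8.29% and 12.3% in the second. Edn1, the endothelin gene that KLF2 is known to hold down, was at 1.23 CPM in HFD_EXE, 104.5 CPM in HFD_sed and 0.460 CPM in S, the last from 12 UMIs. Esm1, a gene of sprouting endothelium, was at 13.4 CPM in HFD_EXE, 542 CPM in HFD_sed and 8.70 CPM in S. As a class, HFD_sed LSECs thus had Klf2 at 2548 CPM, and Edn1 and Esm1 above the class levels of the other 2 libraries. Whether the same cells carried these genes was not tested. In HFD_sed the Esm1-led sub-cluster of endothelial cells described below had less Klf2 than the rest. Between HFD_EXE and S, 3 of 11 measured genes of the list were called higher and 1 was called lower, and the list's median was 0.20 on the log2 scale, beside 0.02 over all genes. In that comparison 9.06% of all genes were higher and 8.5% lower.

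Upstream of the KLFs, 13 genes were measured, among them the kinases of the cascade, the MEF2 factors, a class II deacetylase and the CCM complex that restrains the cascade. None was called in HFD_EXE over HFD_sed or over S, and 1 was called lower in HFD_sed over S, the deacetylase gene Hdac5, at 22.5 CPM in HFD_sed and 39.7 CPM in S. Among flow sensors, Flt4, which encodes the receptor VEGFR3, was at 1139 CPM in HFD_EXE and 708.5 CPM in HFD_sed, a ratio of 1.61. The list gave 2 of 16 genes higher and 1 lower in HFD_EXE over HFD_sed, 1 of 15 higher and 0 lower in HFD_EXE over S, and 1 higher and 1 lower of 15 in HFD_sed over S. With 8.29%, 9.06% and 14.6% of all genes called higher in these comparisons, such counts are near the background.

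Of 19 measured genes of the nitric oxide pathway, 4 were higher and 2 lower in HFD_EXE over HFD_sed, 2 higher and 0 lower in HFD_EXE over S, and 4 higher and 3 lower in HFD_sed over S. Over all genes 8.29% were higher and 12.3% lower in the first comparison, 9.06% and 8.5% in the second and 14.6% and 9.17% in the third. Nostrin, whose product controls the trafficking of endothelial nitric oxide synthase, followed Nos3, at 314 CPM in HFD_EXE, 140.5 CPM in HFD_sed and 198 CPM in S. Slc7a1, an arginine transporter that supplies the substrate of the enzyme, was instead at 18.0 CPM in both HFD libraries and at 4.29 CPM in S. Around S1pr1, the lipid phosphatase gene Plpp1 was at 1374 CPM in HFD_EXE, 392 CPM in HFD_sed and 1381 CPM in S. Spns2, the exporter of sphingosine 1-phosphate, was at 39.7 CPM in HFD_EXE, 106.5 CPM in HFD_sed and 61.2 CPM in S. Of the 11 measured genes of that axis, 1 was higher and 3 lower in HFD_EXE over HFD_sed, 0 higher and 4 lower in HFD_EXE over S, and 2 higher and 4 lower in HFD_sed over S. The shares over all genes given above apply to these counts too, and the counts of genes called higher lay near them.

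Other Krüppel-like factors also differed. Of 10 measured, 6 were called higher and 0 lower in both HFD_EXE comparisons, and 2 higher and 1 lower in HFD_sed over S. Over all genes 8.29% were higher and 12.3% lower in HFD_EXE over HFD_sed, and 9.06% and 8.5% in HFD_EXE over S. In HFD_sed over S the shares were 14.6% and 9.17%, near the counts of the list there. Klf6 followed Klf2, at 626 CPM in HFD_EXE, 437 CPM in HFD_sed and 145 CPM in S. Klf9, a target of the glucocorticoid receptor, was at 957 CPM in HFD_EXE, 279 CPM in HFD_sed and 331 CPM in S, and so set HFD_EXE apart from both.

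Sub-clusters of endothelial cells passing the markers of central-side and portal-side LSECs differed by less than 1.5-fold in every gene in HFD_EXE and S. In HFD_EXE the central-side over portal-side ratio was 1.05 for Klf2, 1.21 for Klf4, 1.198 for Nos3 and 0.805 for S1pr1. HFD_sed gave 0.593 for S1pr1 and 1.72 for Cav1, with the other 4 genes under 1.5-fold. Neither call held with zones set by the marker gene Kit, where Kit-positive over Kit-negative cells of HFD_sed gave 1.064 for S1pr1 and 1.012 for Cav1, and S1pr1 was not called at a sub-clustering resolution of 1.2 (0.668). The Kit gate left out cells with a Vwf, Rspo3 or Wnt9b UMI, and its HFD_sed cells differed in depth (medians 6026 and 4815 UMIs). It parted the central-side gene Wnt2 less, at 138 against 94.5 CPM, than the sub-clusters did, at 253 against 71.9 CPM. This gate therefore cannot decide whether the calls fail. Between libraries, in HFD_EXE over HFD_sed, Klf4 was 1.91 in central-side and 1.70 in portal-side cells, and S1pr1 1.95 and 1.44, the last not called. The Kit gate held 3270 positive and 1415 negative cells in HFD_EXE, against 652 and 1463 in HFD_sed. Klf4 was 1.69 in its positive and 1.43 in its negative cells, the latter not called, and S1pr1 1.51 and 1.58. Nos3 was called higher in all 4 of these subsets. The portal-side cells were those of sub-cluster e6, whose leading genes included Ifit1, Ifit3 and Isg15, and of e7, led by Esm1, Kcnj2 and Ccn2. In HFD_EXE, HFD_sed and S, e6 held 126, 402 and 82 cells. Kit was at 717, 134 and 651 CPM in central-side cells and at 373, 102 and 418 CPM in portal-side cells of these libraries. The part of these states in the central-side over portal-side ratios was not tested. Sub-cluster e7 held 429 cells of HFD_sed, 38 of HFD_EXE and 6 of S. In HFD_sed its Klf2 was at 1266 CPM, against 2736 CPM in the other endothelial cells (ratio 0.463), its Klf4 at 294 against 736 CPM, and its Nos3 at 48.6 against 86.5 CPM. S1pr1 did not share in this, at 588 CPM in e7 against 412 CPM in the rest. The 38 HFD_EXE cells of e7 showed the same pattern, with Klf2 at 1451 against 2974 CPM and S1pr1 at a ratio of 1.22. Edn1 was at 219.9 CPM in e7 of HFD_sed and at 58.3 CPM in e7 of HFD_EXE. The sub-clusters were built without the 6 genes but from the same cells.

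Sub-cluster e3, led by the inducible genes Nr4a1, Dusp5 and Apold1, held the highest Klf2 of HFD_sed, at 4535 CPM in 312 cells, against 3611 CPM in 943 HFD_EXE cells and 1046 CPM in 34 S cells. Its Klf2 ratio to the other endothelial cells was 2.10 in HFD_sed and 1.30 in HFD_EXE. Sub-cluster e2, led by Fosb, Fos and Egr1, had Klf4 at 1.32 times the other endothelial cells in HFD_EXE, 1.88 times in HFD_sed and 1.96 times in S. These leading genes overlap the immediate early list. Outside them, in e0, led by Hgf and Msr1, Klf2 was at 2508 CPM in HFD_EXE, 2161 CPM in HFD_sed and 805 CPM in S.

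Arterial-like cells, a small sub-cluster of 48 cells in HFD_EXE, 22 in HFD_sed and 28 in S, had Klf2 at 4611 CPM in HFD_EXE, 2581 CPM in HFD_sed and 1323 CPM in S. In HFD_EXE they exceeded the other endothelial cells 1.57-fold for Klf2, 1.68-fold for Klf4 and 1.65-fold for S1pr1, and in S 2.07-fold for S1pr1. In HFD_sed, with 22 such cells, the ratio was 1.042 for Klf2, 0.671 for Klf4 (0.526 to 0.843) and 1.262 for S1pr1, none of them called. Nos3 was called higher in HFD_sed (1.89) and Piezo1 in HFD_EXE (1.52). Nos3 in these cells was at 229 CPM in HFD_EXE, 149.7 CPM in HFD_sed and 139.8 CPM in S. Central vein cells, 80 in HFD_EXE, 233 in HFD_sed and 64 in S, were compared with central-side LSECs of the same library. The cells behind this name differed between libraries. Their Rspo3 was at 3796, 1003 and 5322 CPM and their Vwf at 702, 300 and 1268 CPM in HFD_EXE, HFD_sed and S. Cav1 gave a ratio of 2.30 in S (112 against 48.9 CPM), 0.514 in HFD_sed (22.3 against 43.5 CPM) and 1.098 in HFD_EXE, and so took no common direction. Nos3 was called lower in HFD_EXE (0.642) and Piezo1 higher in S (1.61), and no other ratio of this pair was called.

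**Figure D5:**
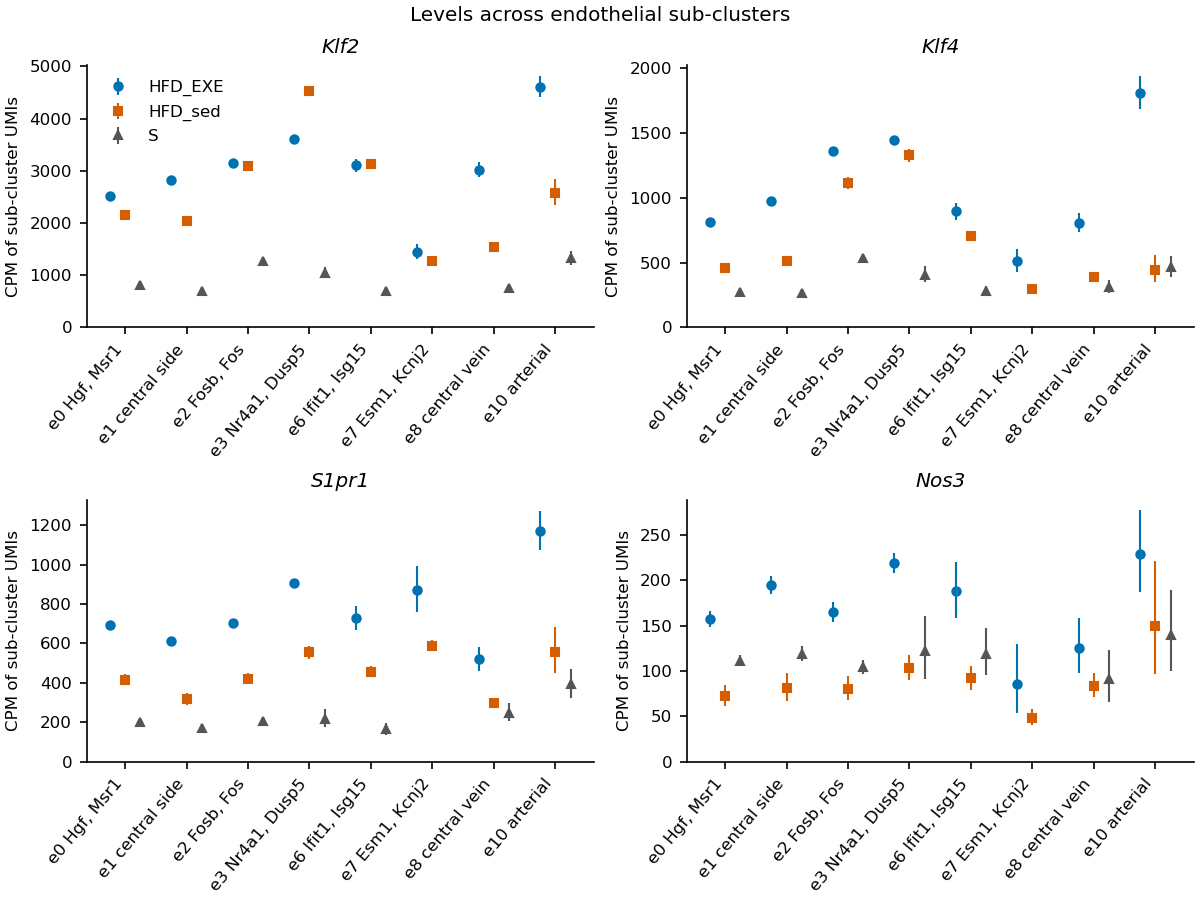
Level in CPM (vertical axis) across endothelial sub-clusters (horizontal axis) by library, with 95% counting bars. In HFD_sed, Klf2 ranges between 1266 CPM in the Esm1-led sub-cluster e7 and 4535 CPM in the Nr4a1-led sub-cluster e3.

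Among leukocytes Klf2 was detected in all 8 classes described, and its rank relative to endothelium turned round between libraries. In S the highest level was in neutrophils, at 2374 CPM, followed by B cells at 1529 CPM and Kupffer cells, the resident macrophages of the liver, at 1377 CPM, all above LSECs at 894 CPM. In HFD_EXE only neutrophils, at 3191 CPM, stood above the 2937 CPM of LSECs, and their interval overlapped that of vascular cells. In HFD_sed B cells led, at 2867 CPM. B cells had Klf2 at 1727 CPM in HFD_EXE, 2867 CPM in HFD_sed and 1529 CPM in S, so that HFD_sed was the high library, and HFD_EXE over HFD_sed was lower at a ratio of 0.603. Plasmacytoid dendritic cells shared that pattern, at 788, 1810 and 731 CPM in HFD_EXE, HFD_sed and S. T cells as a class were at 829, 1002 and 947 CPM, but the class held different clusters in each library.

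S1pr1, which lymphocytes use to leave tissues, was found in T and B cells in all 3 libraries. T cells had 202 CPM in HFD_EXE, 141 CPM in HFD_sed and 266 CPM in S, and B cells 305, 399 and 353 CPM. Clec4g, a measure of free endothelial RNA, was at 154, 45.9 and 90.5 CPM in the same T cells and at 181, 127 and 328 CPM in the B cells. The T cell classes were made of different clusters, and of 3083 HFD_sed T cells 1671 lay in c5, led by Cd8a and Gzmk. Cluster c10, led by Dapl1, Lef1 and Tcf7, held the highest T cell levels, with S1pr1 at 355 CPM in HFD_EXE, 415 CPM in HFD_sed and 528 CPM in S and Klf2 at 1179, 1836 and 1675 CPM. Cluster c11, led by Il2ra and Cxcr6, had S1pr1 at 28.7, 39.9 and 13.98 CPM and Klf2 at 433, 755 and 359.8 CPM. In all 3 libraries Klf2 and S1pr1 were thus each higher in c10 than in c11. Within these clusters Klf2 was called lower in HFD_EXE over HFD_sed, at a ratio of 0.642 in c10 and 0.574 in c11, and higher in HFD_sed over S in c11 (2.098).

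In monocytes and macrophages Klf4, which is known for its part in monocyte differentiation, was at 513 CPM in HFD_EXE, 701 CPM in HFD_sed and 885 CPM in S. This class, too, held different clusters, with 90 cells of HFD_EXE, 1074 of HFD_sed and 78 of S in c9 and 58, 177 and 115 in c21. The Ace-led monocyte cluster c21 carried more of both factors than the Chil3-led and F13a1-led cluster c9 in every library. Klf2 was at 2189 CPM in HFD_EXE, 3434 CPM in HFD_sed and 1755 CPM in S in c21, against 866, 1505 and 863 CPM in c9. Klf4 was at 987, 1940 and 1218 CPM in c21, against 362, 594 and 584 CPM in c9. The class order, with S highest, was therefore not that of the clusters, where Klf4 in HFD_sed over S was 1.59 in c21 and 1.016 in c9. Kupffer cells had Klf4 at 316, 189 and 347 CPM, but 1880 of the 1952 S Kupffer cells lay in cluster c4 and most of those of HFD_EXE and HFD_sed in c6.

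Low levels of S1pr1 and Nos3 in myeloid cells stood beside free endothelial RNA. Kupffer cells had S1pr1 at 101 CPM in HFD_EXE, 35.9 CPM in HFD_sed and 11.7 CPM in S, and Nos3 at 39.1, 7.47 and 8.33 CPM. Clec4g in the same cells was at 477, 181 and 192 CPM, and in neutrophils at 279.5, 88.6 and 109.6 CPM. The part of free RNA in these low levels was not tested. Cav1 was at or below 6.92 CPM in all leukocyte classes. Piezo1 was at 51.9, 45.9 and 59.4 CPM in monocytes and macrophages, with intervals overlapping those of LSECs in HFD_EXE and S, and below 10 CPM in neutrophils and plasmacytoid dendritic cells.

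Across 33 sums of a class in a library, the genes most like each of the 6 in log2(CPM + 1) were sought among 7308 genes. The points share libraries and depth, and the correlations are descriptions. Nos3 was most like Fzd4 (Pearson's r 0.980), Tie1 (0.979) and Cyyr1 (0.978), and Cav1 most like Fam171a2 (0.960). S1pr1 was most like Trib2 (0.926) and Ets1 (0.890). Klf2 had no such close match, the nearest being Ptbp3 (0.832), and for Klf4 it was Fam102b (0.856). For Piezo1 it was Ggta1 (0.887). Among the 6 genes themselves r was 0.874 for Nos3 and Cav1, 0.436 for Klf2 and Klf4, and 0.192 for Klf2 and Nos3.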

How the data were processed

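Droplet 3′ single-cell RNA-seq counts of liver non-parenchymal cells were analysed for 3 libraries, 1 per group. The deposited matrices hold raw UMI counts per gene and barcode, made with Cell Ranger 6.1.2 on GRCm39 per the submitters' processing notes. Counts were summed by symbol. Cells with fewer than 500 UMIs, fewer than 300 genes or 15% or more mitochondrial UMIs were dropped, and doublets were removed with Scrublet at one common score limit, averaged from the limits it chose for HFD_sed and S, since its choice for HFD_EXE marked no cell (295, 328 and 403 cells were removed in HFD_EXE, HFD_sed and S). Cells were clustered jointly (scanpy 1.11.5, leidenalg 0.10.2, 2000 variable genes without the 6 members, 30 components, resolution 1.0) and named from marker lists, at least 3 markers each. A second naming pass took marker folds over cells of other lineages. It and the doublet threshold were set after the clusters were seen. Endothelial cells were sub-clustered after centring each library (resolution 0.6).

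UMIs were summed per class and library and given as CPM with exact Poisson intervals. Ratios have exact conditional binomial intervals and needed 20 UMIs in both libraries together, and shares of cells have exact Clopper-Pearson intervals. A replicate test was not possible. The calling step was tested on simulated data. Alternatives changed the scaling, filters, thinning depth, clustering resolution, doublets, subsets of cells, ratio limit and naming. Members and gene lists were chosen with earlier results of these data known. Genes named from a list are those called in LSECs whose interval lies farthest from 1, up to 4 per comparison, and any cluster-leading gene or other gene outside that rule was chosen after its values were seen. Software also included Python 3.11.15, numpy 2.4.6, scipy 1.17.1, pandas 2.3.3 and matplotlib 3.10.9.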

Additional observations from a re-analysis of the deposited data

Results flagged for a closer look

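In 6 cases the ratio in a leukocyte class passed the 1.5-fold limit in the direction opposite to LSECs of the same libraries. None of these differences between classes was tested, and each rests on 1 library per group. In HFD_sed over S, Klf4 in Kupffer cells had a ratio of 0.546 (189 CPM in HFD_sed, 347 CPM in S), against 2.05 in LSECs. Most Kupffer cells of HFD_sed lay in cluster c6 and most of S in c4, and within these clusters the ratio was 0.746 in c6 and 0.730 in c4, neither of them called. In the same comparison S1pr1 had a ratio of 0.531 in T cells (141 and 266 CPM in HFD_sed and S), 0.381 in monocytes and macrophages (13.9 and 36.5 CPM) and 0.355 in conventional dendritic cells (5.48 and 15.5 CPM), against 2.40 in LSECs. The T cells of the 2 libraries lay in different clusters, and within them the S1pr1 ratio was 0.786 in c10, 2.86 in c11 and 0.560 in c5. Clec4g, as a measure of free endothelial RNA, was at 34.7 and 444 CPM in the monocytes and macrophages of HFD_sed and S and at 37.6 and 147.5 CPM in the conventional dendritic cells, and its part in these low S1pr1 levels was not tested. Klf4 in B cells had a ratio of 0.587 in HFD_EXE over HFD_sed (201 and 343 CPM), against 1.60 in LSECs. Klf4 in monocytes and macrophages had a ratio of 0.580 in HFD_EXE over S (513 and 885 CPM), against 3.28 in LSECs. The mix of clusters differed between these libraries, and within them the Klf4 ratio was 0.620 in c9 and 0.810 in c21.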

How the results depend on the processing

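Of 186 member ratios in LSECs over the alternatives, 179 kept their call, 7 did not and 1 of these changed direction. In cells with a low immediate early share, Klf4 in HFD_sed over S was 0.937 in LSECs, S1pr1 in vascular cells was 0.995, and 2 members were lower in HFD_sed over S LSECs, against 0 in all cells. Median-of-ratios scaling also gave 2 lower. At a limit of 2-fold, 1 member was higher in HFD_EXE over HFD_sed, against 3. With zones set by single marker genes, S1pr1 central-side over portal-side in HFD_sed was 1.06, against 0.593. With 1 UMI as the minimum, 5.32% of genes were higher in HFD_EXE over HFD_sed LSECs (8.29% at 20 UMIs) and 5.96% lower in HFD_sed over S (9.17%). The cause was not tested. Taking LSECs by a gene gate or by each library's largest cluster alone, both chosen after seeing the data, left the counts of members called at 3, 4 and 3 higher in HFD_EXE over HFD_sed, HFD_EXE over S and HFD_sed over S. No paired analysis was possible because each group has 1 library. Depth limits Cav1 and Piezo1 most, with few UMIs per cell.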
